A study of Homo sapiens with 24 samples.

Results

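The Fanconi anemia genes described here are FANCA, FANCB, FANCC, FANCD2, FANCE, FANCF, FANCG, FANCI, FANCL and FANCM. They were chosen by gene symbol, and each symbol matched 1 gene, which gave 10 genes of the 57820 in the deposited count tables. RNA-seq was carried out on WT and ID3-KO cells, and the 24 libraries fall into 8 groups of 3 biological replicates. Both genotypes of U2OS, a human osteosarcoma cell line, were left untreated or given mocetinostat, an inhibitor of the class I histone deacetylases (HDACs). The same 4 groups exist for AID-DIvA cells, a U2OS line with an inducible AsiSI restriction enzyme fused to an auxin-inducible degron, in which the treated cells were also left to recover. Per the methods, treatment lasted 24 h and recovery, in medium without the drug, another 24 h, and U2OS cells are taken here as the samples collected before recovery. Whether a sample was collected before or after recovery and which cell line its label names go together, so that the effects of stage and line cannot be told apart. The sources used here give neither a mocetinostat dose for the RNA-seq nor the number of ID3-KO clones. All groups share the U2OS background, and in what follows WT and KO stand for the ID3 genotype.

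The Fanconi anemia pathway removes DNA interstrand crosslinks, lesions that tie both DNA strands together and stop replication forks. FANCM holds the nuclear core complex on DNA, and the core is built of a FANCA-FANCG module, a FANCB-FANCL module with the ubiquitin ligase FANCL, and a FANCC-FANCE-FANCF module that brings in the substrate. The complex attaches ubiquitin to the FANCD2-FANCI pair, which then clamps onto DNA and calls in nucleases, translesion polymerases and homologous recombination, until the deubiquitinase USP1 removes the mark. Many of these genes are known to be expressed most in the S phase of the cell cycle.

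Before the results, 3 features of the libraries need to be stated. In AID-DIvA cells, all 12 libraries carry a treatment entry in their labels that is the reverse of what their titles say. The titles and library names were followed, and the other reading would turn the sign of every treatment effect given for AID-DIvA cells. WT U2OS untreated replicate 1 stood apart from its 2 sister replicates, with a chi-square per gene of 103 and 91.1, whereas no other pair of replicates of a group exceeded 27.3. Calls of members that changed without this library, and called values of named genes that moved by over 1.5 times, are given with and without it. Total counts ran from 37878751 to 76906266 per library, and the shallowest was KO AID-DIvA treated and recovered replicate 1. ID3 was lower in KO than in WT in every state, with log2 fold changes of -0.56 and -1.03 in untreated AID-DIvA and U2OS cells and -0.89 and -1.21 after treatment, while the KO libraries still held 29.3 to 67.3 CPM (counts scaled to library size with edgeR's TMM factors over all 24 libraries). Among osteoblast and mesenchymal markers VIM (433 to 944 CPM), COL1A1, RUNX2 and SPP1 were at or above 11.8 CPM in every library, whereas ALPL (0.619 to 6.95 CPM) and the collagen gene COL1A2 (0.0515 to 1.37 CPM) were low, and BGLAP and IBSP, markers of mature osteoblasts, stayed at or below 0.689 and 0.404 CPM. Of markers of other cell types, PTPRC and ALB did not exceed 0.407 and 0.0344 CPM, CDH1 lay between 0.165 and 2.003 CPM, and EPCAM reached 10.4 CPM. In bulk RNA, fewer cells that express a gene and less RNA per cell cannot be told apart.

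Promoter sequences of the members were read from RefSeq windows (build GRCh38.p14, 250 bases before to 50 after a start site, 300 in all). Of the 10 members, 9 matched a window, and FANCI did not. The letters of E2F sites (TTTGGCGC, TTTCGCGC, TTTCCCGC or TTTGCCGC, on either strand) were present for FANCA, FANCC and FANCD2, 3 of the 9, and in 3.31% of all 35116 windows. FANCG, the member that fell furthest in U2OS cells before recovery but not in AID-DIvA cells after it, had none of these letters. Its last 150 bases before the start site are shown next to the other stretches. Capitals mark the E2F letters, on the strand of the gene or reversed.
FANCA, chr16:89816792-89816839, minus strand, from 192 to 145 bases before the start site: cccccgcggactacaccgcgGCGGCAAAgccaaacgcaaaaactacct
FANCC, chr9:95317728-95317901, minus strand, from 192 to 19 bases before the start site: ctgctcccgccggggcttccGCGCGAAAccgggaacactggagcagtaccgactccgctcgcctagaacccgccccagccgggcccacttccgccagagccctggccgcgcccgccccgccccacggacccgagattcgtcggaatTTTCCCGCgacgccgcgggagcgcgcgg
FANCD2, chr3:10026415-10026442, plus strand, from 22 bases before the start site to 6 bases after it: tcagagcggcgtcgggcctgGCGGGAAA
FANCG, chr9:35079943-35080092, minus strand, the last 150 bases before the start site: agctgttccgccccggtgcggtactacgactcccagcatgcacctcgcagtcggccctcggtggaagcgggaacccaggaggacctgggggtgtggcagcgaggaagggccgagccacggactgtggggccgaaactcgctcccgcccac
In FANCC the E2F letters begin 172 and 46 bases before the start site, in FANCA 172 bases before it, and in FANCD2 2 bases before it. The other RefSeq window of FANCC, at an alternative start site, held none. CCAAT, the letters bound by NF-Y, occurred for FANCA, FANCF and FANCM, 3 of the 9, against 34.6% of all windows. The cell cycle element letters (TTTGAA or TTCGAA) occurred for FANCC alone, against 16.4% of windows. E-box letters (CAGGTG or CAGCTG or CACGTG or CATCTG) occurred for FANCB, FANCC, FANCD2 and FANCF, 4 of the 9, against 47.9%. In FANCC they were CACGTG alone. None of these strings contains another, and matches were sought on both strands. A match describes the letters in the window and is no evidence of binding.

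All 10 members were counted in every library and passed edgeR's filter on low counts in every comparison. Per kilobase of exon, the level that allows genes to be compared, FANCG was the most abundant in 7 of 8 groups, with group means between 20.4 and 39.1 CPM per kb, and FANCI (16.1 to 29.5) was next to it in those and above it in treated KO U2OS cells. FANCE (10.7 to 13.8), FANCL (9.99 to 14.8), FANCD2 (6.24 to 14.7) and FANCA (7.73 to 10.8) overlapped one another in their ranges. FANCC had 3.66 to 8.08 CPM per kb, FANCM 2.42 to 4.64 and FANCF 3.34 to 4.11, again overlapping, and FANCB was lowest with 1.63 to 2.44. The spread between the highest and lowest group mean was widest for FANCD2, at 2.36-fold, and for FANCC, at 2.21-fold. It was narrowest for FANCF, at 1.23-fold, and FANCE, at 1.29-fold. These levels use counts from either strand. With counts of the annotated strand alone, FANCF had 4.50 to 5.19 and FANCM 2.34 to 4.47 CPM per kb, without overlap.

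**Figure D1:**
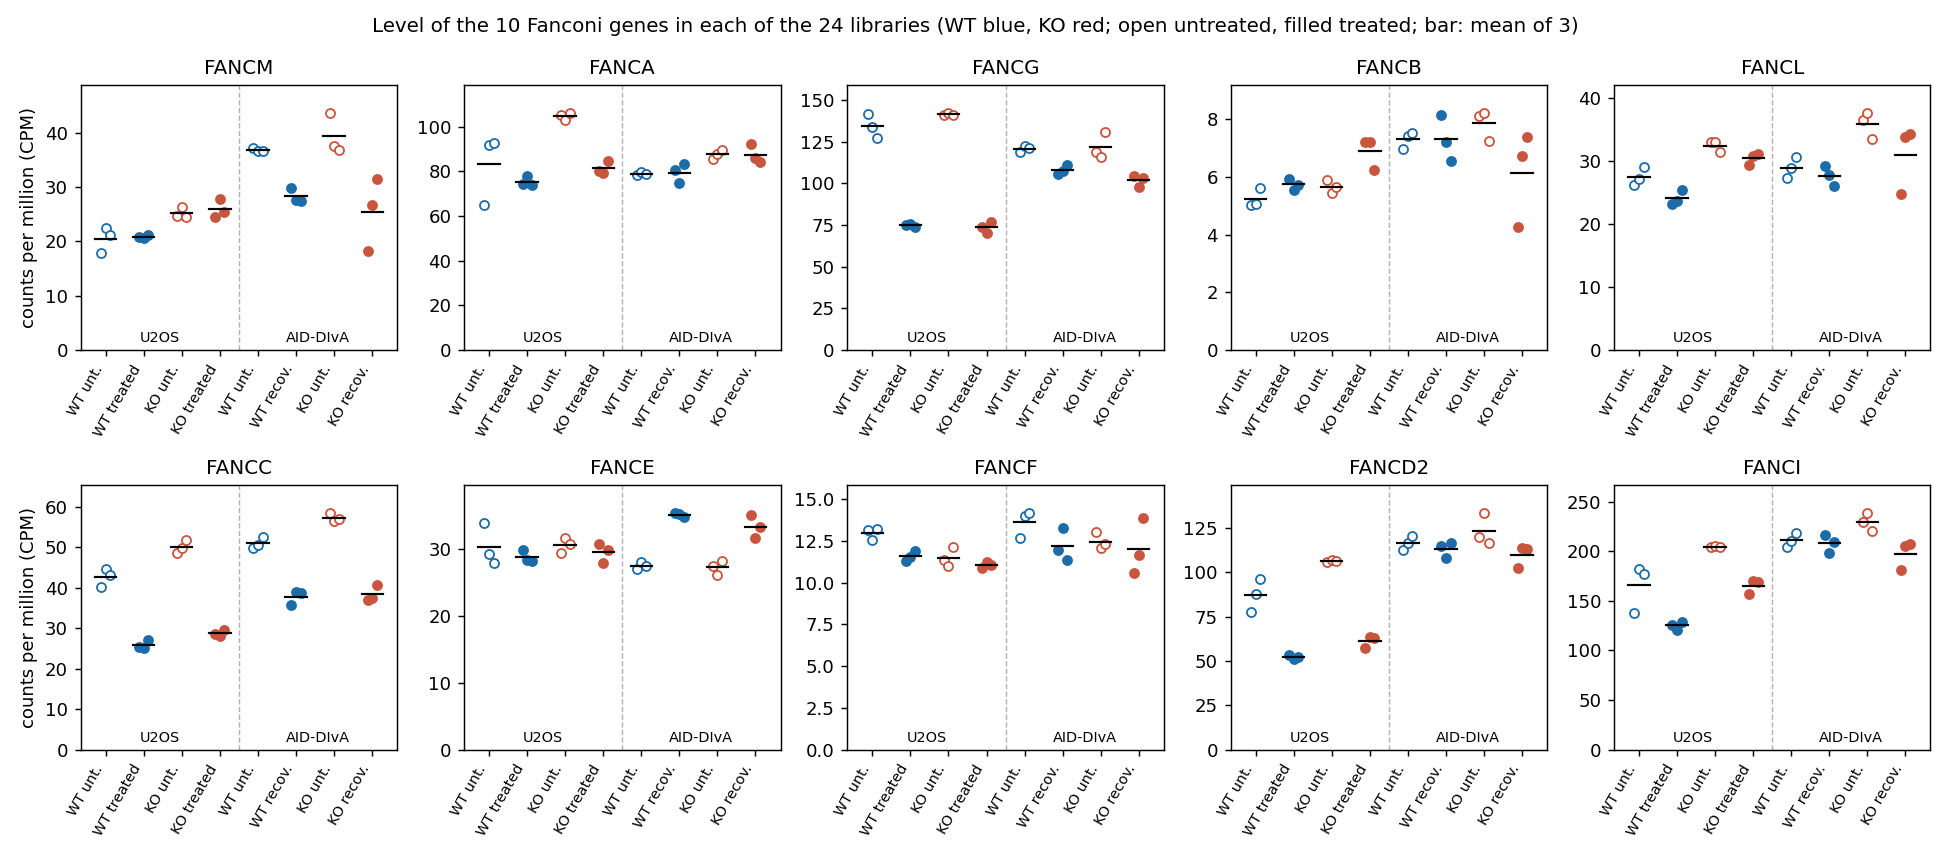
CPM of each of the 10 members (linear axis from 0) in each of the 24 libraries, by group, with U2OS left and AID-DIvA right of the dashed line, WT in blue, KO in red, open circles untreated, filled circles treated, and a bar at the mean of 3. FANCG, FANCC, FANCD2, FANCI and FANCL are lower in every treated U2OS library than in every untreated U2OS library of the same genotype. The share of all genes that separate in this way was not computed. After recovery FANCD2 overlaps between treated and untreated libraries in WT but not in KO cells.

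In U2OS cells collected right after mocetinostat, the core complex genes FANCG and FANCC and the substrate gene FANCD2 fell in both genotypes to between 0.523 and 0.611 of their untreated level, and FANCI fell less. FANCA fell and FANCB rose in KO cells. FANCE, FANCF, FANCL and FANCM passed the test in neither genotype. Of the 10 members 4 were lower and 0 higher in WT cells, where 22.9% of all genes tested were lower and 26.0% higher (edgeR's quasi-likelihood test, Benjamini-Hochberg adjusted p below 0.05). In KO cells 5 were lower and 1 higher, against 34.0% lower and 35.8% higher over all genes. The median log2 fold change of the members was -0.16 in WT and -0.19 in KO cells, and that of all genes lay at 0.0058 and 0.0009.

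Among the members of the FANCA-FANCG module, FANCG stood at 142, 134 and 127 CPM in the 3 untreated WT libraries and at 74.8, 75.9 and 74 CPM in the treated ones. In KO cells it stood at 141, 142 and 141 CPM untreated and at 73.6, 70.4 and 76.8 CPM treated. Every treated library lay below every untreated one, and the treated libraries of both genotypes spanned a narrow range. The log2 fold change was -0.83 (SE 0.074, adjusted p = 6.9e-05) in WT and -0.94 (SE 0.045, adjusted p = 1.4e-14) in KO cells. FANCA, the partner that carries the module into the nucleus, had 65.1, 91.9 and 92.6 CPM in untreated WT and 74.2, 77.7 and 73.8 CPM in treated WT libraries. The low value, 65.1 CPM, belonged to the replicate that stood apart, and the groups overlapped through it alone. In KO cells FANCA went from 105, 103 and 106 CPM to 80.1, 79.5 and 84.8 CPM without overlap. Its log2 fold change was -0.36 (SE 0.044, adjusted p = 1.9e-07) in KO and -0.13 (SE 0.13, adjusted p = 0.44) in WT cells, and -0.29 (SE 0.038, adjusted p = 4.6e-09) in WT cells without replicate 1.

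FANCC, of the substrate-recruiting module, fell in the same manner. Its levels were 40.2, 44.7 and 43.2 CPM in untreated and 25.4, 25.2 and 27.1 CPM in treated WT libraries, and 48.6, 49.9 and 51.8 CPM and 28.6, 28 and 29.4 CPM in the KO libraries. No treated library reached an untreated one. The log2 fold change was -0.71 (SE 0.075, adjusted p = 0.00016) in WT and -0.80 (SE 0.05, adjusted p = 1.7e-12) in KO cells. The other 2 genes of that module did not pass the test. FANCE had log2 fold changes of -0.067 (SE 0.093) and -0.047 (SE 0.054), and FANCF of -0.15 (SE 0.077) and -0.049 (SE 0.067), in WT and KO cells.

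FANCD2, which receives the ubiquitin mark, had 77.4, 87.7 and 96.2 CPM in untreated WT and 53.4, 51.4 and 52 CPM in treated WT libraries. In KO libraries it had 106, 107 and 106 CPM and, treated, 57.6, 63.4 and 63.1 CPM. The separation was complete in both genotypes, with log2 fold changes of -0.73 (SE 0.09, adjusted p = 0.00041) in WT and -0.79 (SE 0.046, adjusted p = 6.4e-13) in KO cells. FANCI, its partner in the clamp, was measured at 137, 182 and 177 CPM in untreated and 126, 121 and 129 CPM in treated WT libraries. In KO libraries the values were 204, 205 and 204 CPM and 157, 169.7 and 169 CPM. The groups did not overlap in either genotype, yet the fall was smaller than that of FANCD2, at -0.39 (SE 0.11, adjusted p = 0.02) in WT and -0.30 (SE 0.043, adjusted p = 1.6e-06) in KO cells. Without WT replicate 1 the FANCI change in WT cells was -0.51 (SE 0.035, adjusted p = 2.8e-18). In WT cells the FANCI call was kept under 8 of 14 alternatives, with adjusted p between 2.8e-18 and 0.084.

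FANCB, the scaffold around which the ligase module is assembled, was the least abundant member. It had 5.9, 5.45 and 5.63 CPM in untreated and 7.2, 7.21 and 6.25 CPM in treated KO libraries, a log2 rise of 0.29 (SE 0.087, adjusted p = 0.0056). In WT cells its levels, 5.03, 5.06 and 5.61 CPM untreated and 5.93, 5.56 and 5.73 CPM treated, overlapped, with a log2 fold change of 0.14 (SE 0.098). FANCL, the ligase, gave -0.17 (SE 0.077) in WT and -0.086 (SE 0.051) in KO cells, and FANCM, the anchor, 0.036 (SE 0.093) and 0.046 (SE 0.058). Although FANCL did not pass, its treated libraries lay below its untreated ones in both genotypes. In each genotype 6 members had every treated library below every untreated one, with FANCF among them in WT cells. The share of all genes that separate in this way was not computed. Without WT replicate 1, FANCL passed in WT cells, at -0.20 (SE 0.055, adjusted p = 0.00098). The members that fell and passed the test in both genotypes were FANCC, FANCD2, FANCG and FANCI. FANCC and FANCG belong to different modules of the core complex, and FANCD2 and FANCI form the substrate pair. Over the same libraries 31 of 43 genes of the S phase list of Seurat were lower in WT and 34 in KO cells, with median log2 fold changes of -0.59 and -0.38, and of the 54 genes of its G2/M list 25 and 35 were lower. The part of cell cycle phase in the members' fall was not tested.

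**Figure D2:**
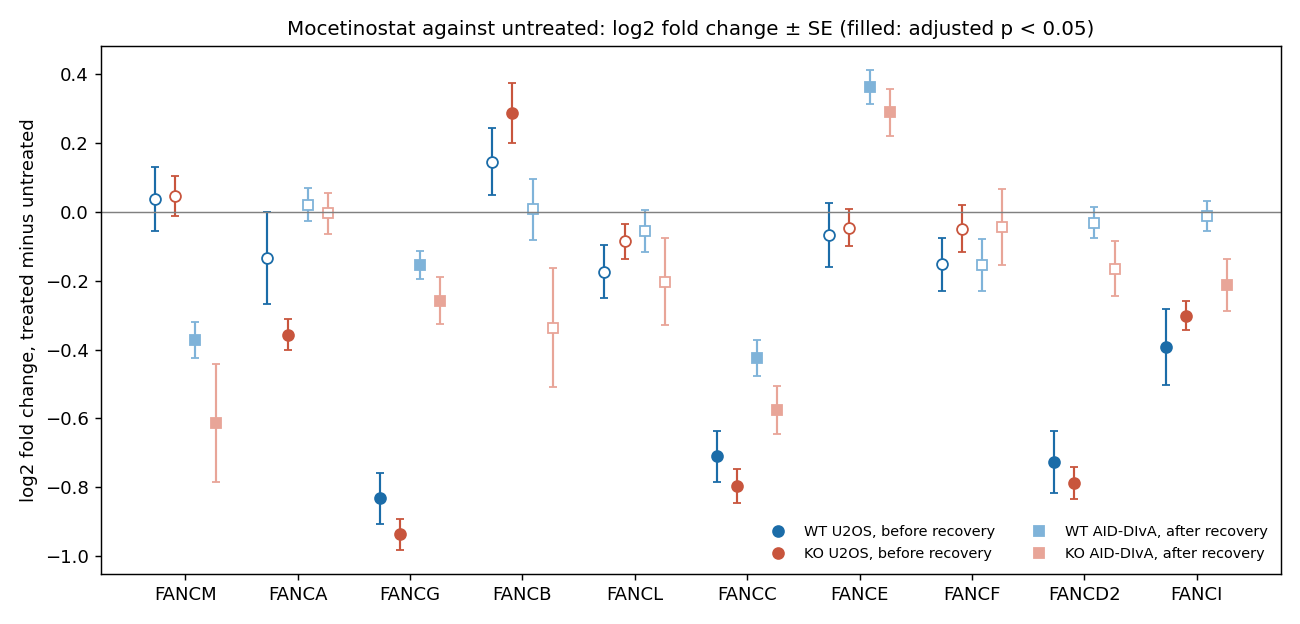
Log2 fold change of each member, treated minus untreated, with bars of 1 SE, in the 4 treatment comparisons (circles U2OS before recovery, squares AID-DIvA after recovery, blue WT, red KO), filled where the adjusted p was below 0.05. FANCG, FANCC and FANCD2 lie between -0.71 and -0.94 before recovery, whereas FANCM is below and FANCE above 0 only among the squares.

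In AID-DIvA cells after mocetinostat and recovery, FANCC, FANCG and FANCM were lower and FANCE was higher than in untreated cells of the same genotype, in both genotypes. FANCI was lower in KO cells. FANCD2, which fell before recovery, did not pass the test after it, apart from KO cells when all 4 AID-DIvA groups were fitted together (-0.17 (SE 0.065, adjusted p = 0.048)). In WT cells 3 members were lower and 1 higher, against 23.0% and 23.9% of all genes tested, and in KO cells 4 were lower and 1 higher, against 19.9% and 20.2%. The members' median log2 fold change was -0.044 in WT and -0.21 in KO cells, with -0.0005 and -0.023 over all genes.

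FANCC had 49.7, 50.6 and 52.5 CPM in untreated and 35.6, 38.9 and 38.7 CPM in treated and recovered WT libraries, and in KO libraries 58.4, 56.5 and 57 CPM and 37, 37.5 and 40.6 CPM. No recovered library reached an untreated one, and the change was -0.42 (SE 0.052, adjusted p = 1.7e-05) in WT and -0.58 (SE 0.07, adjusted p = 0.00017) in KO cells. FANCE, which in the same module contacts FANCD2, moved the other way, from 27, 28.1 and 27.5 CPM to 35.4, 35.2 and 34.9 CPM in WT and from 27.5, 26.2 and 28.2 CPM to 35.1, 31.7 and 33.3 CPM in KO libraries. Its rise, 0.36 (SE 0.049, adjusted p = 4.5e-05) in WT and 0.29 (SE 0.068, adjusted p = 0.0081) in KO cells, was kept under all 14 alternatives in each genotype. FANCF, the adaptor of the module, gave -0.15 (SE 0.075) and -0.044 (SE 0.11) and passed in neither.

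FANCM, which did not pass before recovery, fell in both genotypes after it. Its levels were 37.1, 36.7 and 36.7 CPM in untreated and 29.8, 27.7 and 27.4 CPM in recovered WT libraries, a log2 fold change of -0.37 (SE 0.052, adjusted p = 6.1e-05). In KO cells they were 43.5, 37.6 and 36.8 CPM and 18.3, 26.7 and 31.4 CPM, a log2 fold change of -0.61 (SE 0.17, adjusted p = 0.018). The lowest value came from KO treated and recovered replicate 1, in which FANCB and FANCL were also at their lowest, at 4.25 and 24.8 CPM. Without that library the FANCM change in KO cells was -0.41 (SE 0.084, adjusted p = 0.0013). The call was lost when any 1 of the 3 untreated KO libraries was left out, with adjusted p from 0.061 to 0.065.

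FANCG had 119, 122 and 121 CPM in untreated and 105, 107 and 111 CPM in recovered WT libraries, and 119, 116 and 131 CPM and 105, 97.8 and 103 CPM in KO libraries. The libraries did not overlap in either genotype, and the change was -0.15 (SE 0.042, adjusted p = 0.008) and -0.26 (SE 0.069, adjusted p = 0.014). In KO cells it missed the threshold when recovered replicate 2 was left out, with an adjusted p of 0.067. FANCA gave 0.02 (SE 0.048) in WT and -0.0049 (SE 0.059) in KO cells.

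FANCD2 had 113, 116 and 120.3 CPM in untreated and 115, 108 and 116 CPM in recovered WT libraries, which overlapped. In KO libraries it went from 119.9, 133 and 117 CPM to 102, 114 and 113 CPM, with log2 fold changes of -0.032 (SE 0.045) in WT and -0.17 (SE 0.079, adjusted p = 0.12) in KO cells. FANCI had 229, 238 and 220.2 CPM in untreated and 181, 205 and 207 CPM in recovered KO libraries, a change of -0.21 (SE 0.075, adjusted p = 0.048), and -0.013 (SE 0.044) in WT cells. The FANCI call in KO cells was kept under 6 of 14 alternatives, with adjusted p from 0.012 to 0.14, and without recovered replicate 1 the change was -0.13 (SE 0.054, adjusted p = 0.067). FANCL and FANCB passed in neither genotype, with -0.057 (SE 0.061) and 0.0064 (SE 0.088) in WT and -0.20 (SE 0.13) and -0.34 (SE 0.17) in KO cells. Of the G2/M list, 52 of 54 genes were lower in each genotype after recovery, with medians of -0.65 in WT and -0.92 in KO cells. The S phase list was split, with 11 lower and 19 higher of 43 in WT and 9 lower and 9 higher in KO cells.

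The responses at both stages were set against each other. The change after recovery minus the change before it was fitted over all 24 libraries. In KO cells 5 members were higher and 2 lower by this measure, against 21.7% and 24.3% of all genes, and in WT cells 5 were higher and 1 lower, against 22.6% and 22.8%. FANCG and FANCD2 were among those higher, by 0.68 (SE 0.082) and 0.63 (SE 0.10) in KO and by 0.68 (SE 0.082) and 0.70 (SE 0.10) in WT cells. FANCM differed in the opposite direction, by -0.66 (SE 0.16) in KO and -0.41 (SE 0.16, adjusted p = 0.047) in WT cells. The WT value passed in 10 of 31 alternatives, and without WT U2OS untreated replicate 1 it was -0.31 (SE 0.17, adjusted p = 0.15), while FANCA then passed in WT cells, at 0.31 (SE 0.07, adjusted p = 0.00042). These differences hold time and cell line label together, and their size and order rest on the reading of the AID-DIvA labels by title.

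The comparisons of KO with WT cells use the same libraries as the treatment comparisons and are not independent of them. In untreated AID-DIvA cells FANCA, FANCC and FANCL were higher in KO than in WT cells and 0 members were lower, against 18.6% and 18.1% of all genes. FANCL, at 36.5, 37.6 and 33.6 CPM in KO and 27.3, 29 and 30.6 CPM in WT libraries, had the largest difference, 0.29 (SE 0.056, adjusted p = 0.00078). FANCC differed by 0.15 (SE 0.045, adjusted p = 0.018) and FANCA by 0.13 (SE 0.044, adjusted p = 0.03). After treatment and recovery 0 members were called in either direction, against 12.6% higher and 11.1% lower of all genes, 0 had an unadjusted p under 0.05, and DESeq2 also called 0. Without KO recovered replicate 1, FANCL was higher in KO cells, by 0.29 (SE 0.069, adjusted p = 0.0074).

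In untreated U2OS cells 9 of 10 members had a positive difference, KO minus WT, of which 0 passed edgeR's test, 6 had an unadjusted p under 0.05 and DESeq2 called 2. The shares of all genes with a positive difference or with an unadjusted p under 0.05 were not computed. The median difference was 0.23 for the members and -0.010 over all genes. Of the 20621 genes it tested, edgeR called 6.56% higher and 8.63% lower. DESeq2 called 4.70% higher of the 37003 genes with any count, a wider base, so the 2 shares are not directly comparable. Without WT replicate 1, 7 members passed, all higher in KO cells (FANCA, FANCC, FANCD2, FANCG, FANCI, FANCL and FANCM), where 20.5% of all genes were higher. FANCL then differed by 0.21 (SE 0.051, adjusted p = 0.00063) and FANCD2 by 0.21 (SE 0.039, adjusted p = 1.9e-05). In treated U2OS cells 7 members were higher in KO and 0 lower, against 19.0% of all genes in either direction. FANCI differed most, with 157, 169.7 and 169 CPM in KO and 126, 121 and 129 CPM in WT libraries and a log2 difference of 0.40 (SE 0.045, adjusted p = 2.4e-08). FANCL followed with 0.34 (SE 0.056, adjusted p = 1.7e-05), FANCM with 0.31 (SE 0.059, adjusted p = 9.9e-05) and FANCD2 with 0.23 (SE 0.05, adjusted p = 0.00039). FANCA, FANCB and FANCC also passed, with differences between 0.12 and 0.26, each of which lost its call under 6 or 7 of 14 alternatives. FANCE, FANCF and FANCG did not pass, and FANCG had a difference of -0.024 (SE 0.046). In the same libraries 35 of 43 S phase genes and 28 of 54 G2/M genes were higher in KO cells, and their part in the members' difference was not tested.

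**Figure D3:**
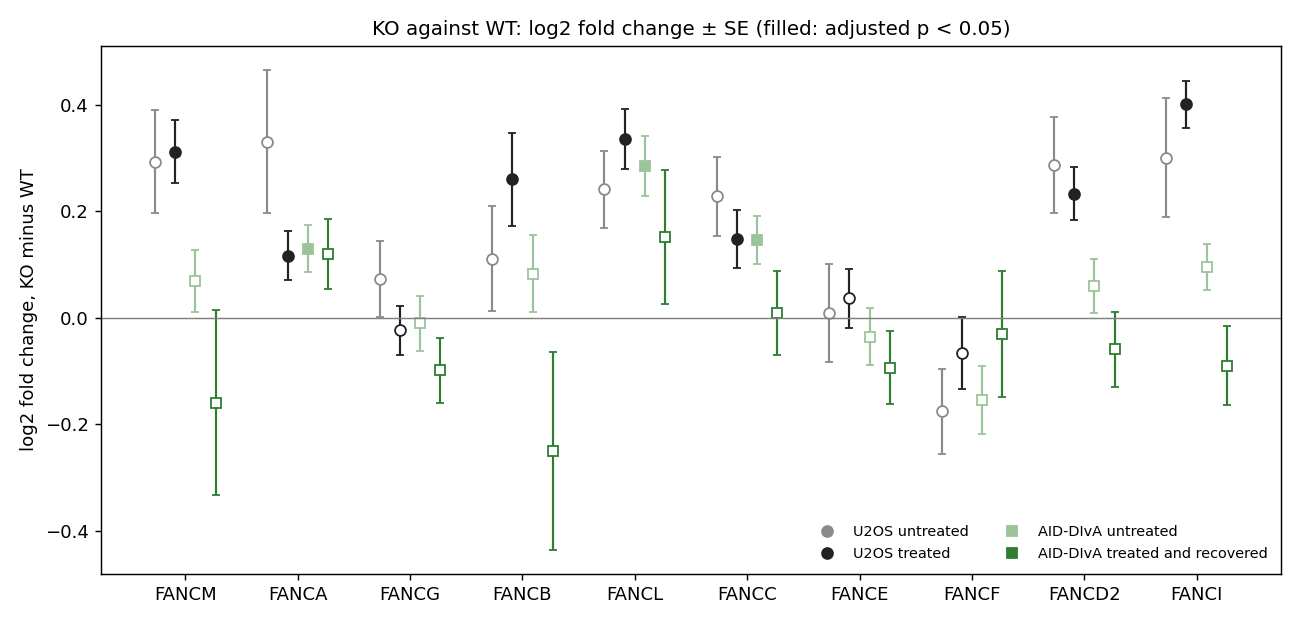
Log2 fold change of each member, KO minus WT, with bars of 1 SE, in untreated and treated U2OS cells (circles) and in untreated and recovered AID-DIvA cells (squares), filled where the adjusted p was below 0.05. In treated U2OS cells 7 of the 10 members are filled and above 0, while no square of the recovered cells is filled.

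The test of whether the response to mocetinostat differed between the genotypes gave 0 members after recovery, against 0.762% of all genes higher and 0.451% lower, with 1 member (FANCI, -0.19 (SE 0.089, adjusted p = 0.41)) at an unadjusted p under 0.05. Before recovery it gave 0 members as well, against 1.10% and 1.06% of all genes, and 0 members had an unadjusted p under 0.05. DESeq2 called 0 members in both. Without WT U2OS untreated replicate 1, FANCI passed before recovery, with an interaction of 0.21 (SE 0.058, adjusted p = 0.014), as did 4.46% of all genes in that direction. The changes in KO and WT cells given above are therefore read side by side, and a call in a single genotype is not shown to differ from the other.

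Other genes of the pathway were taken from 4 lists, whose counts stand against 22.9% (WT) and 34.0% (KO) of all genes lower before and 23.0% and 19.9% lower after recovery, and 26.0%, 35.8%, 23.9% and 20.2% higher. Of 8 partners of the core complex and genes of the ubiquitin switch, 6 were lower in each genotype before recovery (median log2 fold change -0.62 in WT and -0.63 in KO cells), and 2 were lower in WT and 3 in KO cells after it. Before recovery 0 of these 8 were higher in WT and 2 in KO cells, by a log2 fold change of at most 0.22. After recovery 0 were higher in either genotype. USP1, the deubiquitinase that ends the FANCD2-FANCI mark, was lower in all 4 treatment comparisons, with log2 fold changes of -0.59 (SE 0.075, adjusted p = 0.00041) and -0.59 (SE 0.055, adjusted p = 2.8e-09) before recovery in WT and KO cells and of -0.37 (SE 0.059, adjusted p = 0.00021) and -0.61 (SE 0.19, adjusted p = 0.028) after it. Without KO recovered replicate 1 the last value was -0.38 (SE 0.063, adjusted p = 0.00034). UBE2T, the ubiquitin-conjugating enzyme that works with FANCL, was higher in KO cells before recovery (0.12 (SE 0.048)) and lower after it (-0.29 (SE 0.063)). It passed in neither WT comparison (-0.064 (SE 0.11) and -0.12 (SE 0.05)). The UBE2T call in KO cells before recovery was kept under 8 of 14 alternatives, with adjusted p from 0.00058 to 0.24, and that of USP1 in KO cells after recovery under 9 of 14, with adjusted p from 0.00034 to 0.27. FAAP24, which binds DNA with FANCM and is listed in the files as C19orf40, was chosen after its values were seen. Before recovery its log2 fold change was below that of every member and of every other gene in the 4 lists, at -1.08 (SE 0.095, adjusted p = 6.7e-05) in WT and -1.04 (SE 0.074, adjusted p = 1.8e-11) in KO cells, where FANCM itself did not pass. FAAP20 (C1orf86), the partner of FANCA, FAAP100 (C17orf70), the partner of FANCB and FANCL, and CENPX (STRA13), which also binds FANCM, were likewise chosen after the fact and fell before recovery, with log2 fold changes of -0.88, -0.65 and -0.83 in WT and -0.74, -0.72 and -0.67 in KO cells, with adjusted p at or below 0.012. Without WT U2OS untreated replicate 1 the WT value of FAAP20 (C1orf86) was -0.57 (SE 0.048, adjusted p = 5.5e-15) and that of CENPX (STRA13) -0.53 (SE 0.045, adjusted p = 6.3e-15).

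Of 11 other genes that carry a FANC name, mostly homologous recombination genes, 5 were lower and 0 higher in WT and 8 lower and 2 higher in KO cells before recovery. After recovery 1 was lower and 2 higher in WT and 3 lower and 1 higher in KO cells. BRIP1, the helicase also named FANCJ, was the gene of this list called in all 4 comparisons, with -0.61 (SE 0.15, adjusted p = 0.011) and -0.58 (SE 0.057, adjusted p = 4e-09) before and -0.31 (SE 0.049, adjusted p = 0.00017) and -0.58 (SE 0.16, adjusted p = 0.016) after recovery in WT and KO cells. Without KO recovered replicate 1 the last value was -0.38 (SE 0.061, adjusted p = 0.00023). Of 10 nuclease and translesion synthesis genes 5 were lower in WT and 7 in KO cells before recovery, with 0 and 1 higher, and after recovery 2 were lower and 2 higher in WT and 1 lower and 1 higher in KO cells. Of 8 genes of ATR signalling 2 and 4 were lower before recovery and 1 in each genotype after it, with 2 higher in WT cells. Of the last 2 lists, 0 genes were called in all 4 treatment comparisons. The S phase list shares 2 genes with the ATR list, 2 with the other FANC genes and 1 with the core partners.

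**Figure D4:**
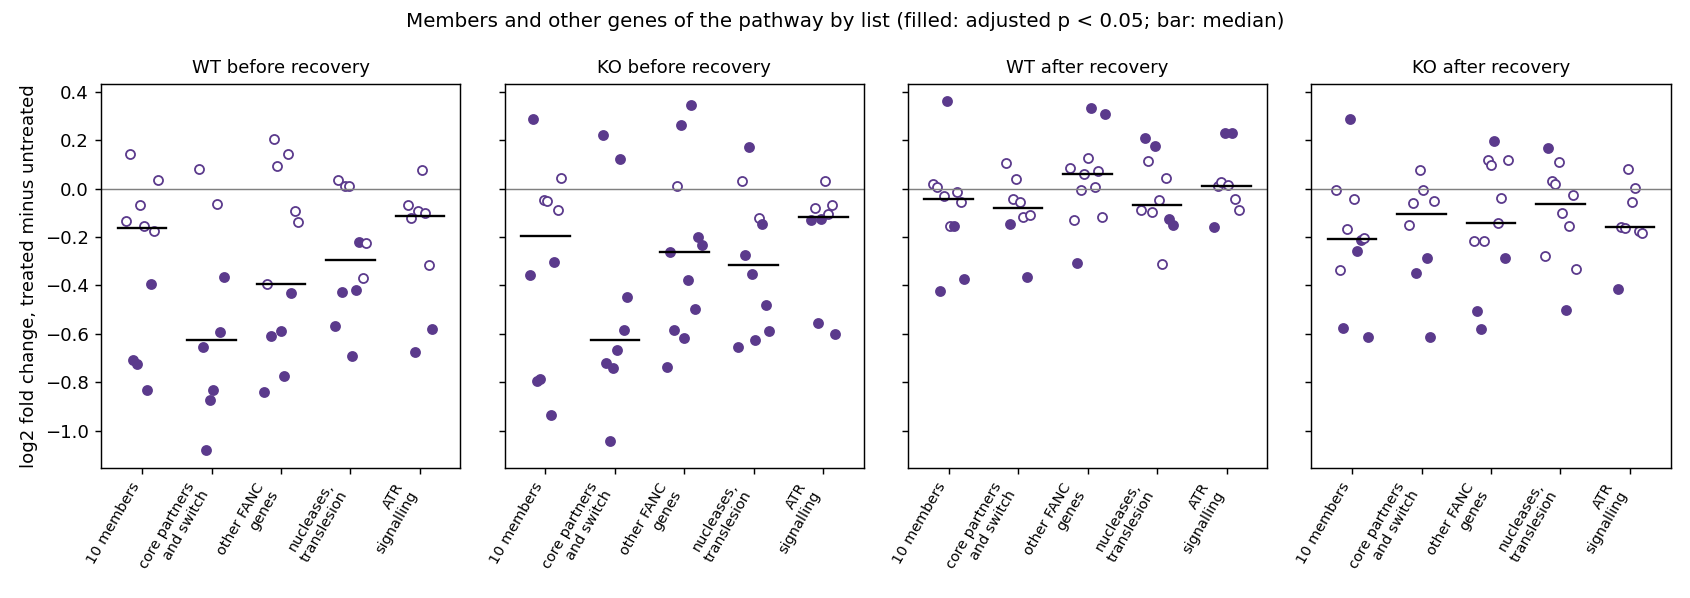
Log2 fold change, treated minus untreated, of each member and of each gene of the 4 other pathway lists in the 4 treatment comparisons, filled where the adjusted p was below 0.05, with a bar at the median of each list. Before recovery the core partners and switch genes have medians of -0.62 and -0.63, and after recovery the medians of all 5 sets lie between -0.21 and 0.059.

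The members did not vary as 1 group. Over the 24 libraries, the Pearson correlations of log2 CPM among the 45 pairs of members had a median of 0.44 and were below 0 in 10 pairs. They ran from -0.39 for FANCE with FANCM to 0.93 for FANCD2 with FANCI, the pair that forms the clamp. Against the mean of the members' z scores, FANCI (0.95), FANCD2 (0.94) and FANCC (0.90) were closest and FANCE (-0.037) was farthest. Among 15595 genes with a mean of at least 1 CPM, the 5 genes outside the family closest to that mean were CDC7 (0.98), XPO4 (0.97), C4orf21 (0.97), ICMT (0.96) and KNTC1 (0.96). The libraries share groups, cell lines and treatments, so these values describe likeness and carry no test.

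The deposited counts ignore strand, and fragments where genes on opposite strands overlap can be left unassigned. Counts of the annotated strand alone were available for comparison. For FANCB, FANCC, FANCE, FANCG and FANCM the counts from either strand were between 99.6% and 101.5% of the annotated-strand counts. For FANCA, whose end overlaps ZNF276 on the opposite strand (chromosome 16, hg19, FANCA 89803957 to 89883065), they were 65.3% to 78.4%, and for FANCF, which overlaps the start of GAS2 (chromosome 11, 22644079 to 22647387), 65.3% to 78.9%. FANCL, FANCI and FANCD2 also overlap a gene on the opposite strand. FANCL, which overlaps VRK2 (chromosome 2, 58386378 to 58468507), had 76.0% to 88.7%. FANCI, which overlaps POLG (chromosome 15, 89787180 to 89860492), had 86.7% to 93.5%. FANCD2, which overlaps FANCD2OS (chromosome 3, 10068098 to 10143614), had 87.5% to 90.6%. The levels given here for these 5 genes are therefore lower than those on the annotated strand. For FANCL the counts on the opposite strand also came to 42.4% to 70.0% of those on the annotated strand, and on the annotated strand its difference between untreated KO and WT AID-DIvA cells was 0.28 (SE 0.051, adjusted p = 0.00058). With annotated-strand counts FANCA in KO cells before recovery changed by -0.38 (SE 0.042, adjusted p = 3.1e-08) and FANCI by -0.30 (SE 0.043, adjusted p = 1.3e-06). FANCF, which did not pass with counts from either strand, then passed in that comparison, at -0.16 (SE 0.059, adjusted p = 0.022). A FANCD2 pseudogene, FANCD2P2, held 6 to 34 counts per library, and reads shared with it cannot be assigned.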

How the data were processed

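The authors aligned paired reads from stranded total RNA libraries to hg19/GRCh37 with STAR and counted them per gene with featureCounts. The deposited values are raw counts per gene and library, not normalized or pooled, from either strand and by strand. Counts from either strand were used, and those of the annotated strand were an alternative. In R 4.3.3, edgeR 4.0.16 fitted a robust quasi-likelihood model with TMM factors after its filter on low counts, on the groups each comparison is about, with Benjamini-Hochberg adjustment over all genes tested and calls at an adjusted p below 0.05. Log2 fold changes are given with their standard errors. Depth was 37878751 to 76906266 counts per library, and counting error was not separated from the spread of the 3 replicates.

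Alternatives were DESeq2 1.42.0, its size factors in edgeR, no TMM factors, no filter, at least 10 counts in every library, annotated-strand counts, wider fits, a replicate block, a fold threshold, and each library left out. The fit was run on simulated counts for some of the comparisons, with changes larger than those of the members and no library that stood apart. Changes as small as those of the members were not covered. All 10 members are named, and from other lists USP1, UBE2T and up to 3 genes called in all 4 treatment comparisons. FAAP24, FAAP20, FAAP100 and CENPX are named outside that rule, chosen after their values were seen. The members and lists were chosen with earlier results of these data known. S phase and G2/M lists come from Seurat 5.3.0, and promoter sequences and older gene symbols from RefSeq (GRCh38.p14). The other assays of the study were not analysed here, and 1 marker gene is not reported here.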

Additional observations from a re-analysis of the deposited data

Results flagged for a closer look

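The response to mocetinostat differed between the AID-DIvA cells after recovery and the U2OS cells before it for 7 members in KO and 6 in WT cells, by the test of the difference itself (edgeR's quasi-likelihood test over all 24 libraries, Benjamini-Hochberg adjusted p below 0.05), where of all genes tested 21.7% were higher and 24.3% lower in KO and 22.6% and 22.8% in WT cells. In KO cells the log2 fold change after recovery minus that before it was 0.36 for FANCA, -0.63 for FANCB, 0.22 for FANCC, 0.63 for FANCD2, 0.34 for FANCE, 0.68 for FANCG and -0.66 for FANCM. In WT cells it was 0.29 for FANCC, 0.70 for FANCD2, 0.43 for FANCE, 0.68 for FANCG, 0.38 for FANCI and -0.41 for FANCM. FANCC, FANCD2, FANCE, FANCG and FANCM were called in the same direction in both genotypes. The FANCC call in KO cells was kept under 22 of 31 alternatives, with adjusted p up to 0.32. The FANCM call in WT cells was kept under 10 of 31, with adjusted p up to 0.15. The cell line label, the stage and the 2 sequenced experiments change together, and their parts cannot be told apart.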

How the results depend on the processing

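The falls of FANCC, FANCD2 and FANCG before recovery, of FANCC after it and the rise of FANCE after it kept their direction and their call under every alternative run (14 for each comparison). Requiring a log2 fold change beyond 1 as well left 0 members in all comparisons. With all 4 groups of a cell line label in 1 fit, the members higher in KO cells came to 0 in untreated AID-DIvA, 6 in untreated U2OS and 4 in treated U2OS cells (13.8%, 11.5% and 9.07% of all genes). In that fit FANCM after recovery in WT cells lost its call (adjusted p = 0.055), and FANCD2 after recovery in KO (0.048) and FANCL before it in WT cells (0.024) gained one, as FANCB after recovery in KO cells did without a filter (0.013). DESeq2 called 2 members higher in untreated U2OS cells, and 4.70% of the 37003 genes with any count. With library totals and no TMM factors, 3 members had a higher response after than before recovery in each genotype, against 17.8% of all genes. For samples with the same replicate number, deviations from the group mean correlated at -0.35 to 0.24. Samples with different numbers were not compared, so these values cannot decide whether the numbers pair samples. A fit with the replicate number as a replicate block gave 0 in place of 1 member lower in the WT response after minus before recovery (FANCM, adjusted p = 0.053), against 22.4% of all genes. The block fit also lost FANCI in KO cells after recovery (adjusted p = 0.073) and FANCA in both KO to WT comparisons where it had passed (0.075 and 0.064), and changed no other call of a member.

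Leaving out each library in turn gave 2 to 4 members lower in KO cells after recovery, with 2 left without recovered replicate 2 or any untreated KO library. Of all genes, 12.8% to 20.1% were lower in these fits. KO against WT, leaving out a library gave 1 to 4 higher in untreated AID-DIvA cells (1 without WT replicate 1 or 2), against 14.2% to 21.4% of all genes. There 0 to 1 were lower (1 without KO replicate 3), against 13.8% to 23.0%. In untreated U2OS cells 0 to 7 were higher (7 without WT replicate 1), against 2.57% to 20.5%. After recovery 0 to 1 were higher (1 without KO recovered replicate 1), against 9.16% to 14.3%. The interaction before recovery had 0 to 1 higher (1 without WT U2OS untreated replicate 1), against 0.571% to 4.46% of all genes. The WT response after minus before recovery had 0 to 1 lower, with 0 for all but 4 of the 24 libraries left out.

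The values that changed sign were of genes that passed in neither setting, and the cause was not tested. By setting, these log2 values were, for KO after recovery, FANCA 0.0068 with DESeq2, 0.0085 with its size factors and 0.001 without a filter, and FANCF 0.019 with annotated-strand counts. For WT after recovery, FANCB had -0.0008 without a filter, -0.0086 without TMM factors and -0.0009 in the wider fit. Before recovery and without TMM factors, FANCE had 0.036 and FANCF 0.034 in KO cells, and FANCE 0.027 and UBE2T 0.031 in WT cells. Between genotypes after recovery, FANCC had -0.0097 without TMM factors and -0.0027 in the wider fit, and FANCF 0.008 with annotated-strand counts. In the interaction after recovery FANCA had 0.0024 without a filter, 0.0014 with at least 10 counts in every library and 0.012 with annotated-strand counts, and before recovery FANCF had -0.054 with the last. For the response after minus before recovery, FANCF in KO cells had -0.098 without TMM factors and -0.040 with at least 10 counts, FANCI -0.013 without TMM factors, and FANCF in WT cells 0 with DESeq2, -0.024 without a filter, -0.0049 with annotated-strand counts, -0.11 without TMM factors and -0.044 with at least 10 counts.

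Ranges over left-out libraries that crossed 0 were, after recovery, FANCA -0.020 to 0.029 and FANCF -0.15 to 0.053 in KO, and FANCA -0.013 to 0.060, FANCB -0.083 to 0.082 and FANCI -0.039 to 0.018 in WT cells. Before recovery they were FANCM -0.004 to 0.084 in KO, and FANCE -0.13 to 0.016, FANCM -0.055 to 0.099 and UBE2T -0.13 to 0.056 in WT cells. Between genotypes they were FANCG -0.079 to 0.030 (untreated AID-DIvA) and -0.055 to 0.0049 (treated U2OS), FANCE -0.049 to 0.097 (untreated U2OS), and after recovery FANCC -0.037 to 0.043, FANCF -0.14 to 0.057 and FANCM -0.33 to 0.029. In the interactions they were FANCA -0.055 to 0.017 and FANCL -0.21 to 0.0029 after recovery, and FANCD2 -0.13 to 0.016, FANCE -0.065 to 0.085 and FANCM -0.053 to 0.099 before it. For after minus before they were FANCF -0.088 to 0.095 and FANCL -0.18 to 0.025 in KO and FANCF -0.062 to 0.062 in WT cells. FANCB, the least abundant member, held 149 counts in the shallowest library, and counting error was not separated from replicate spread.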
